A study of Mus musculus with 23 samples.

Results

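Kainate receptor subunits and their Neto partners are 7 genes, Grik1 to Grik5, Neto1 and Neto2, of 39017 genes in each of the deposited tables. They were taken by gene symbol, as a family proposed with earlier results of these data known. All 7 passed the filter on low values in each of the 5 comparisons. RNA of the mouse hippocampus was sequenced from 4 groups of 5 libraries. These were mice labelled knockout for Nrsn2 (the gene of neurensin 2, a neuronal membrane protein) after 10 days of chronic social defeat stress (CSDS), control mice of the knockout label, wild-type (WT) mice after the same stress, and WT control mice. CSDS put each mouse into the cage of an unfamiliar aggressive CD-1 resident for 5 min a day, with a see-through divider between them for the rest of the day. The sources used here give no age, strain background or allele design.

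Kainate receptors are glutamate-gated ion channels of 4 subunits. The proteins of Grik1, Grik2 and Grik3 (GluK1 to GluK3) can form channels by themselves, whereas those of Grik4 and Grik5 (GluK4 and GluK5) bind kainate tightly and need one of the others to reach the surface. In the hippocampus these receptors are best known at the mossy fibre synapses of dentate granule cells onto CA3 pyramidal cells, and in interneurons, where they tune transmitter release and carry slow synaptic currents. Neto1 and Neto2 are single-pass membrane proteins with CUB domains that bind the receptors as auxiliary subunits and slow their gating, and Neto1 also binds NMDA receptors.

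The libraries held an estimated 25.62 to 55.6 M reads, which gave 314 to 648 reads for Grik1, the lowest of the 7 genes, and 4005 to 9915 for Grik5. Nrsn2 itself was not lower in the libraries labelled knockout: it had 32 to 37.4 RPKM (reads per kilobase of gene, scaled to library size) in knockout-labelled CSDS and 28 to 33.1 RPKM in knockout-labelled controls, against 27.3 to 33.3 RPKM in WT CSDS and 25.3 to 31.5 RPKM in WT controls. Genotype is therefore named by its label throughout. The number 10 control of each genotype had the RNA pattern of a female (Xist at 48.2 and 56.5 RPKM), while the other 18 libraries did not, and results are given without these libraries where that matters. A further 3 libraries (WT 9B, knockout-labelled 10B and 11) have conflicting labels, with control in the title and CSDS as the treatment. The series' design text counts 5 control and 6 to 7 stressed samples, which is what the treatment field gives, whereas the authors' control means include these libraries. They were kept out of the groups. Markers of dentate granule, CA3, CA1 and CA2 neurons were detected in every group, with CA1 markers summing to 103 to 137 RPKM.

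In the hippocampus Grik5 and Neto1 were the most abundant of the 7 RNAs per length. Over the 20 libraries Grik5 averaged 44.5 ± 2.58 RPKM and Neto1 24.1 ± 1.98 RPKM (SD, n = 20). Grik4 followed at 8.46 ± 0.742, Grik2 at 8.35 ± 0.38 and Neto2 at 8.13 ± 0.946 RPKM, and these 3 ranges overlapped, so their order is not set. Grik3 averaged 6.24 ± 0.666 RPKM and lay below Neto2 in 20 of 20 libraries, although their ranges overlapped between libraries. Grik1 was lowest at 3.67 ± 0.268 RPKM, and its highest library (4.22) was below the lowest of Grik3 (4.73). Grik5 therefore supplied 59.6 to 65.2% of the summed RPKM of the 5 subunit genes in every library. The order rests on the gene length used by the authors: their values imply 3533 bp for Neto1 and 8275 bp for Grik2, against 8352 and 13246 bp of merged exons in GENCODE. On merged exon length the means would be 33 RPKM for Grik5, 10.2 for Neto1, 8.47 for Grik4, 7.45 for Neto2, 6.25 for Grik3, 5.22 for Grik2 and 1.72 for Grik1, so Grik5 and Neto1 stay at the top and Grik2 moves below Grik3.

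**Figure D1:**
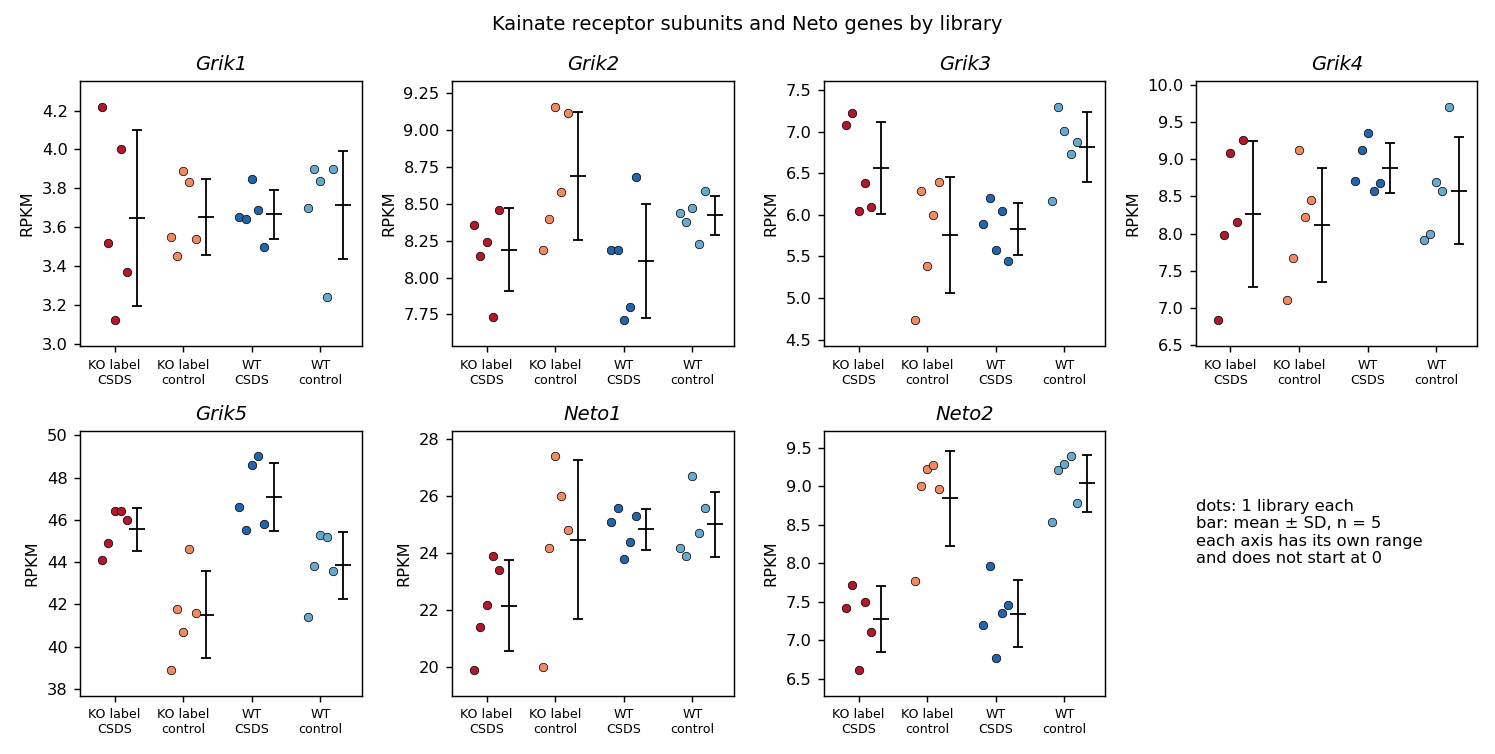
RPKM of each gene (y axis, not starting at 0) in each library, by group (x axis). Dots are libraries and the bar beside them is the mean with its SD, n = 5. Neto2 had a lower mean in both CSDS groups than in their controls, and Grik3 was low in WT CSDS and in knockout-labelled controls.

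Social defeat went with lower Neto2 in both genotypes, slightly higher Grik5 in both, and lower Grik3 in WT. In the knockout-labelled comparison 2 of the 7 genes were called (1 higher, 1 lower) at a Benjamini-Hochberg adjusted p of 0.05 over all genes tested by limma, where 15.0% of 18259 genes were called. In the WT comparison 3 of 7 were called (1 higher, 2 lower), where 22.4% of 18274 genes were called. With backgrounds of this size a count of 2 or 3 among 7 genes is not a result about the family, and the account below is of single genes. The share of all genes whose CSDS and control libraries do not overlap is not given here. Groups said to be apart are therefore description only. Log2 fold changes are CSDS over control, of RPKM + 0.5. In bulk tissue, fewer cells that carry an RNA and less of it per cell cannot be told apart.

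**Figure D2:**
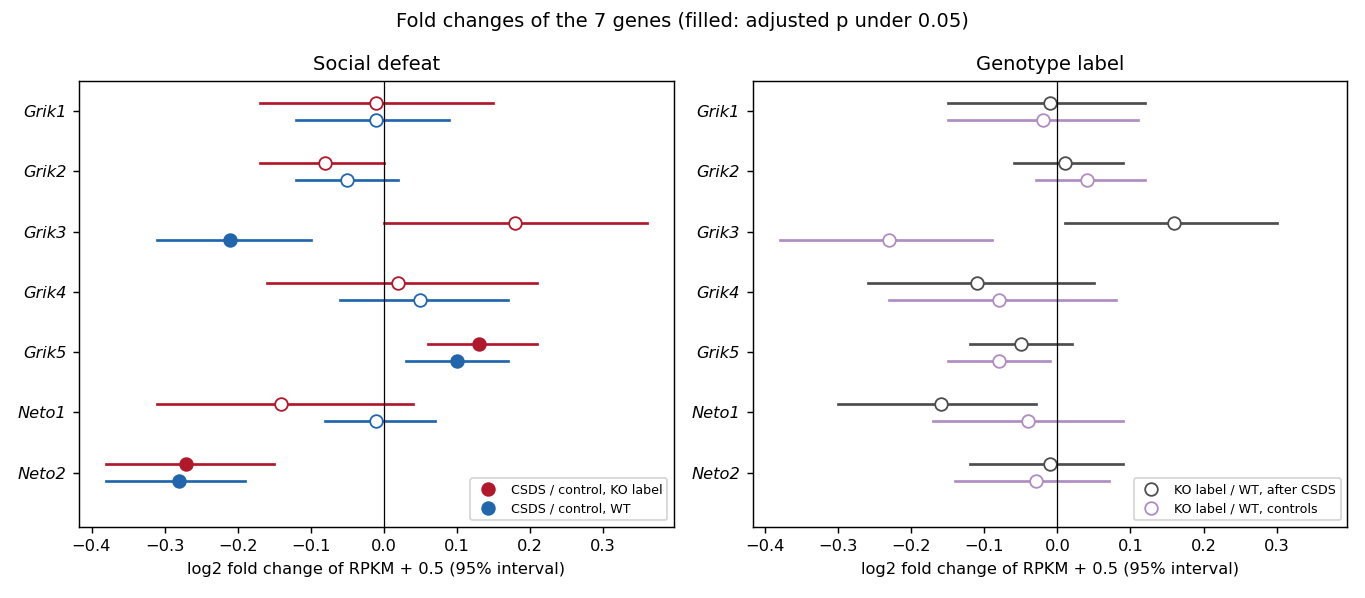
Log2 fold change of RPKM + 0.5 (x axis) with its 95% interval for each gene. Left, CSDS over control in the knockout label (red) and WT (blue). Right, knockout label over WT after CSDS (grey) and in controls (purple). Filled points passed an adjusted p of 0.05. Neto2 lies near -0.28 in both genotypes, and the Grik3 points lie on opposite sides of 0 in each panel.

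The channel-forming subunits Grik1 and Grik2 were not called after defeat. Grik1 (chromosome 16, 87895900 to 88290265, minus strand) averaged 3.64 ± 0.453 RPKM in knockout-labelled CSDS and 3.65 ± 0.197 RPKM in knockout-labelled controls, a log2 fold change of -0.01 (95% interval -0.17 to 0.15). It averaged 3.67 ± 0.128 RPKM in WT CSDS and 3.72 ± 0.279 RPKM in WT controls, also -0.01 (-0.12 to 0.09). The means differed by less than the SD within groups in both genotypes. Grik2 (chromosome 10, 49094833 to 49788766, minus strand) averaged 8.19 ± 0.279 RPKM in knockout-labelled CSDS against 8.69 ± 0.435 RPKM in knockout-labelled controls (-0.08 ± 0.04 SE, adjusted p = 0.187 in limma). In WT it averaged 8.11 ± 0.384 RPKM after CSDS against 8.42 ± 0.13 RPKM in controls (-0.05 ± 0.03, adjusted p = 0.282 in limma). Both Grik2 differences were downward, and the groups overlapped in both.

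Grik3, a channel-forming subunit of low glutamate sensitivity, was lower after defeat in WT and had a fold change of the opposite sign, not called, in the knockout label. It lies on chromosome 4 (125490700 to 125714173, plus strand, mm10). The sequence around its RefSeq start, chr4:125490446-125490745 (plus strand, GRCm38.p6), is shown with those of Grik5, chr7:25072320-25072619 (minus strand), and Neto2, chr8:85700875-85701174 (minus strand), because these are the 3 genes called after defeat. Each runs 5′ to 3′ over 300 bases, 250 before the start and 50 from it, with GC boxes (GGGCGG on either strand, a site of Sp-family factors) in capitals.
Grik3: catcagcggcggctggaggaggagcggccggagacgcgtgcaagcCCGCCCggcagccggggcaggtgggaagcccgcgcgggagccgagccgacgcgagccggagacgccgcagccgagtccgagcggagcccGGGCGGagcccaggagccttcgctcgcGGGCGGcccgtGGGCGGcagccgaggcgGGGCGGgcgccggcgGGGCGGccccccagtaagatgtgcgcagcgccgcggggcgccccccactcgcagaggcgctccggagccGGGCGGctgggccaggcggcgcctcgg
Grik5: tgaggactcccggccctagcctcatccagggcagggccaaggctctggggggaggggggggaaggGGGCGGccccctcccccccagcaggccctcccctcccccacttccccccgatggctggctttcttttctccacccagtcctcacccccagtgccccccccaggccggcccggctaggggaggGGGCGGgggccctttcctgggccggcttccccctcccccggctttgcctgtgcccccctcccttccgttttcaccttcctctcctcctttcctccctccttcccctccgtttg
Neto2: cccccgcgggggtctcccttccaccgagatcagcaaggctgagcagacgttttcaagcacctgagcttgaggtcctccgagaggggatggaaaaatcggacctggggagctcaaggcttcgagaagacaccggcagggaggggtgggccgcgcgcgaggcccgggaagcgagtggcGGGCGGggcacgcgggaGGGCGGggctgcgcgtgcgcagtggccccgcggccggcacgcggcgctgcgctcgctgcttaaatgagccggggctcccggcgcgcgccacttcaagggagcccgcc
All 3 windows are rich in G and C, at 82% for Grik3 and 72% for both Grik5 and Neto2, against a median of 52.7% over 32851 mouse promoters in RefSeq. Grik3 has 7 GC boxes, 6 of them before the start, and Grik5 and Neto2 have 2 each, at -185 and -63 for Grik5 and at -74 and -57 for Neto2 (first base, counted from the start). A GC box is common, being present in 35.7% of all promoters of this length. RefSeq windows were matched for 5 of the 7 genes, with 2 starts for Neto2. Among them, the window of Grik4, which was not called after defeat, had 70% G and C and 2 GC boxes. That of Grik2, also not called, had 64.7% and no GC box. The window of the other Neto2 start had 42.7% and no GC box. In these 6 windows no cyclic AMP response element (TGACGTCA, in 1.79% of all promoters), AP-1 site (TGANTCA, 7.81%), E-box (CACGTG, 7.15%) or EGR site (GCGTGGGCG, 0.612%) was found on either strand. These motifs share no whole site with the GC box.

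Grik3 had 7.08, 7.22, 6.05, 6.38 and 6.09 RPKM in knockout-labelled CSDS libraries 1 to 5, against 6.29, 5.39, 6, 6.39 and 4.73 RPKM in knockout-labelled controls 6 to 10. In WT it had 5.89, 6.2, 5.58, 6.04 and 5.44 RPKM in CSDS libraries 1 to 5, against 7.3, 7.01, 6.73, 6.87 and 6.17 RPKM in controls 6 to 10. After defeat the knockout-labelled libraries reached higher than all of their controls in only libraries 1 and 2, while in WT all CSDS libraries but number 2 lay below every control and number 2 lay above control 10 alone. The WT fall was called, at -0.21 ± 0.05 (adjusted p = 0.0125 in limma). The knockout-labelled value of 0.18 ± 0.08 was not (adjusted p = 0.167 in limma, 95% interval -0.00 to 0.36). In the authors' deposited table, where the sign is control over CSDS, Grik3 stood at -0.17 in the knockout-label table (false discovery rate 0.0759) and at 0.22 in the WT table (0.0152).

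Tested directly, the effect of defeat on Grik3 differed by 0.39 ± 0.10 between the genotypes, knockout label minus WT (95% interval 0.18 to 0.59, unadjusted p = 0.000895 and adjusted p = 0.117 in limma). It thus missed the threshold over all genes, in a comparison where 27 of 18263 genes (0.148%) were called and Grik3 was at place 140 by p. Leaving out both number 10 controls gave 0.36 with adjusted p = 0.0447, and leaving out WT control 10 alone gave 0.42 with adjusted p = 0.0427. These fits called 181 and 244 genes over all, against 27 in the main fit, so the adjusted threshold moved as well. Of 20 fits that each left out 1 library, only the 1 without WT control 10 passed. They gave 0.32 to 0.42, with adjusted p of 0.0427 to 0.23 in limma. With the conflicting libraries counted by treatment field the difference was 0.34 with adjusted p = 0.414 in limma. Knockout-labelled control 10 was the lowest of all libraries for Grik3, and without both number 10 controls the knockout-labelled effect was 0.12 (adjusted p = 0.251). None of the 7 genes was called in this comparison by limma, and Grik3 alone was under an unadjusted p of 0.05. Markers of thalamus, septum and striatum, tissue that borders the dissection, were higher for 3 of 8 tested after CSDS in the knockout label and summed to 33.7 to 42 RPKM there against 28.1 to 33.5 RPKM in its controls. In WT they summed to 30.9 to 47.9 RPKM after CSDS and 32.2 to 42.5 RPKM in controls, with none of 9 called by limma and 1 under an unadjusted p of 0.05. Interneuron markers, from cells that also carry kainate receptors, were higher for 3 of 10 (Gad1, 0.26, Gad2, 0.31, and Slc32a1, 0.26) and lower for 1 (Dlx6os1, -0.15) after CSDS in the knockout label. They summed to 340 to 363 RPKM there against 309 to 354 RPKM in its controls. In WT 2 of 10 were lower and none higher, with sums of 292 to 327 RPKM after CSDS and 280 to 344 RPKM in controls. Astrocyte markers were lower for 2 of 5 and higher for none in the knockout label (336 to 395 RPKM after CSDS, 354 to 389 RPKM in controls). In WT 1 of these 5 was higher and 1 lower (359 to 404 RPKM after CSDS, 352 to 407 RPKM in controls). Oligodendrocyte precursor markers were higher for 2 of 5 and lower for none in WT (57.9 to 69.8 RPKM after CSDS, 57.7 to 66.8 RPKM in controls). In the knockout label 1 of these 5 was higher and none lower (57.9 to 63.5 RPKM after CSDS, 61.8 to 66.5 RPKM in controls). Beside these marker counts, 15.0% of all genes were called after CSDS in the knockout label and 22.4% in WT. No marker of these lists was at 0 in every library of a group, and their part in the values of Grik3 and the other members was not tested.

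Of the high-affinity subunits, Grik5 was a little higher after defeat and Grik4 was not called. Grik5 (chromosome 7, 25009849 to 25072346, minus strand) encodes the subunit that pairs most often with GluK2 in the brain. It had 44.1, 44.9, 46.4, 46.4 and 46 RPKM in knockout-labelled CSDS, against 41.8, 40.7, 44.6, 41.6 and 38.9 RPKM in knockout-labelled controls 6 to 10. It had 46.6, 45.5, 48.6, 49 and 45.8 RPKM in WT CSDS, against 43.8, 45.3, 45.2, 43.6 and 41.4 RPKM in WT controls 6 to 10. Every CSDS library lay above every control in WT, and in the knockout label only control 8 reached into the CSDS range. This is description only, without the share of all genes whose groups are apart. The log2 fold change was 0.13 ± 0.03 in the knockout label (adjusted p = 0.0287 in limma) and 0.10 ± 0.03 in WT (adjusted p = 0.0409). These calls are the least firm of the set: rescaling every library to the same RPKM sum gave 0.12 (adjusted p = 0.149) in the knockout label and 0.05 (adjusted p = 0.351) in WT, and 7 of 10 fits that leave out 1 library in the knockout label and 6 of 10 in WT put the adjusted p above 0.05. Without WT control 10, the library with a female pattern, Grik5 in WT was at 0.08 and not called (adjusted p = 0.0704 in limma). In the authors' deposited table Grik5 had a false discovery rate of 0.0284 in the knockout-label table and 0.101 in the WT table.

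Grik4 (chromosome 9, 42518135 to 42944493, minus strand), whose RNA in the hippocampus is known to be concentrated in CA3, averaged 8.26 ± 0.979 RPKM in knockout-labelled CSDS and 8.12 ± 0.77 RPKM in knockout-labelled controls (0.02, 95% interval -0.16 to 0.21). It averaged 8.88 ± 0.333 RPKM in WT CSDS and 8.58 ± 0.721 RPKM in WT controls (0.05, -0.06 to 0.17). A small RNA gene on the same strand, Gm24420, shares 59 exon bases with Grik4. Since the counting is not given in the sources used here, reads there may be counted for either. Among genes of mean RPKM of at least 1, the closest to Grik4 over the 20 libraries were Lsm11 (Pearson r = 0.87), Cpne4 (0.84) and Lpl (0.82). Cpne4 is a marker of CA3 pyramidal cells on the list used, and no CA3 marker of 4 was called after CSDS by limma in either genotype, nor under an unadjusted p of 0.05.

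Neto2, the auxiliary subunit on chromosome 8 (85636588 to 85700924, minus strand), showed the clearest difference. It had 7.42, 7.72, 6.61, 7.5 and 7.11 RPKM in knockout-labelled CSDS, against 9, 9.22, 9.28, 8.96 and 7.77 RPKM in knockout-labelled controls 6 to 10. It had 7.19, 7.96, 6.77, 7.35 and 7.46 RPKM in WT CSDS, against 9.21, 9.29, 9.39, 8.78 and 8.53 RPKM in WT controls 6 to 10. In both genotypes every CSDS library was below every control, although in the knockout label control 10 (7.77) was close to CSDS library 2 (7.72). How many of all genes have groups apart in this way is not given here, so this is description only. The log2 fold change was -0.27 ± 0.05 in the knockout label (adjusted p = 0.0108 in limma) and -0.28 ± 0.04 in WT (adjusted p = 0.00183). Neto2 was at place 869 of 18259 genes by p in the knockout label and at place 444 of 18274 in WT. The 2 fold changes differed by 0.02 (knockout label minus WT, 95% interval -0.13 to 0.16, adjusted p = 0.948 in limma). Neto2 was called in each of 10 fits that leave out 1 library in the knockout label, and in each of 10 in WT. In the authors' deposited table, control over CSDS, it stood at 0.26 in the knockout-label table (false discovery rate 4.18e-05) and at 0.30 in the WT table (2.79e-06).

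The libraries of conflicting label bear on Neto2, because all 3 had control-like values, at 8.37 RPKM in knockout-labelled 10B, 9.13 in knockout-labelled 11 and 8.82 in WT 9B, above each of the 10 CSDS libraries. Counted by their treatment field as CSDS, they moved the Neto2 fold change to -0.19 in the knockout label, where the call was lost (adjusted p = 0.141 in limma), and to -0.24 in WT, where it held (adjusted p = 0.0366). The same step ended the calls of Grik3 in WT (-0.18, adjusted p = 0.0573) and of Grik5 in both genotypes (adjusted p = 0.0823 and 0.106). Small structural RNAs, which a poly(A) library should largely lack, moved with the groups as well. Their mean log2(RPKM + 0.5) over 7 genes was 2.35 to 2.75 in knockout-labelled CSDS against 2.79 to 5.27 in knockout-labelled controls, and 2.20 to 2.69 in WT CSDS against 2.89 to 4.41 in WT controls. Their part in the differences of Neto2, Grik3 and Grik5 was not tested. Meningeal fibroblast markers were lower for 5 of 5 after CSDS in the knockout label, summing to 23.1 to 31 RPKM against 40.9 to 60.4 RPKM in its controls, while in WT none of 5 was called by limma, 1 was under an unadjusted p of 0.05, and the sums were 32.8 to 47.1 RPKM after CSDS and 20.7 to 60 RPKM in controls. Of all genes 15.0% were called after CSDS in the knockout label and 22.4% in WT. The part of the meningeal markers in the difference of Neto2 was not tested.

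Neto1 (chromosome 18, 86394952 to 86506718, plus strand), the other auxiliary subunit, had 19.9, 21.4, 22.2, 23.9 and 23.4 RPKM in knockout-labelled CSDS, against 24.2, 27.4, 26, 24.8 and 20 RPKM in knockout-labelled controls 6 to 10. All CSDS libraries lay below controls 6 to 9, and control 10 was below all CSDS libraries but number 1. The difference of -0.14 ± 0.08 was not called (adjusted p = 0.275 in limma), and without control 10 it was -0.20 and called (adjusted p = 0.0302). No other fit that left out 1 library called it. In WT Neto1 averaged 24.8 ± 0.705 RPKM after CSDS and 25 ± 1.17 RPKM in controls (-0.01, 95% interval -0.08 to 0.07). The genotypes' effects on Neto1 differed by -0.13 (95% interval -0.31 to 0.06, adjusted p = 0.629 in limma). An antisense gene in GENCODE shares 219 exon bases with Neto1, and a microRNA gene on the other strand shares 20 with Neto2, so reads there cannot be assigned by strand.

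**Figure D3:**
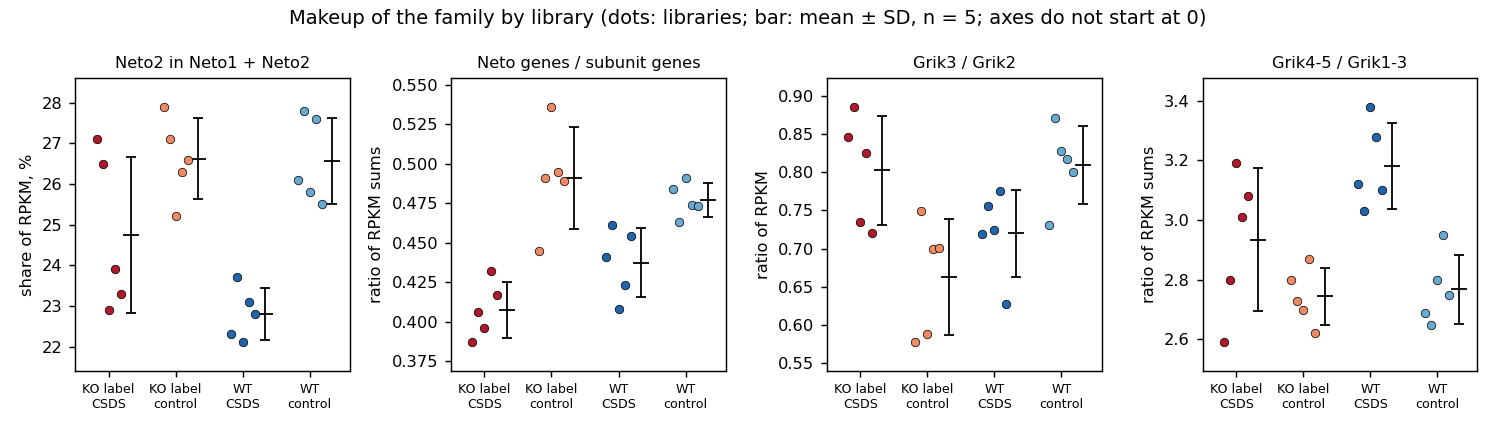
Makeup of the family in each library (y axes do not start at 0; dots are libraries, the bar is the mean with its SD, n = 5). From left to right are the share of Neto2 in the RPKM of both Neto genes, the ratio of summed Neto to summed subunit RPKM, the ratio of Grik3 to Grik2, and the ratio of Grik4 plus Grik5 to Grik1 plus Grik2 plus Grik3. The second ratio was 0.387 to 0.432 in knockout-labelled CSDS and 0.445 to 0.536 in knockout-labelled controls.

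These levels shifted the makeup of the family, described here with no test because the ratios combine chosen genes. Neto2 made up 24.8 ± 1.93% of the RPKM of both Neto genes in knockout-labelled CSDS against 26.6 ± 1.01% in knockout-labelled controls, with overlap. In WT it made up 22.8 ± 0.654% after CSDS against 26.6 ± 1.07% in controls, with no overlap (22.1 to 23.7% against 25.5 to 27.8%). The Neto genes together, relative to the subunit genes, stood at 0.407 ± 0.0174 in knockout-labelled CSDS against 0.491 ± 0.0321 in knockout-labelled controls, and at 0.438 ± 0.0221 in WT CSDS against 0.477 ± 0.0107 in WT controls. Both pairs of groups were apart, so there was less auxiliary RNA per subunit RNA in each CSDS library than in each control of its genotype. The ratio contains Neto2 and Grik5, already called in these comparisons, so it adds no separate support. The libraries of conflicting label stood at 0.481 (WT 9B), 0.479 (knockout-labelled 11) and 0.436 (knockout-labelled 10B). Counted by treatment field as CSDS, they would make the groups overlap in both genotypes. The ratio of Grik4 plus Grik5 to the channel-forming subunits was 2.59 to 3.19 in knockout-labelled CSDS and 2.62 to 2.87 in knockout-labelled controls, and 3.03 to 3.38 in WT CSDS and 2.65 to 2.95 in WT controls. Grik3 over Grik2 was 0.802 ± 0.0721 in knockout-labelled CSDS and 0.663 ± 0.076 in knockout-labelled controls, against 0.72 ± 0.057 in WT CSDS and 0.81 ± 0.0511 in WT controls.

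Between the genotype labels none of the 7 genes was called by limma. Among controls 3.95% of 18263 genes were called, and of the members Grik3 and Grik5 were under an unadjusted p of 0.05. Grik3 averaged 5.76 ± 0.697 RPKM in knockout-labelled controls and 6.82 ± 0.42 RPKM in WT controls (-0.23 ± 0.07, adjusted p = 0.0674 in limma). Its groups overlapped, because 2 knockout-labelled libraries (6.29 and 6.39 RPKM) lay above WT control 10 (6.17 RPKM). Without WT control 10 the value was -0.26 and called (adjusted p = 0.0427 in limma). Without both number 10 controls it was -0.20 and not called (adjusted p = 0.0682 in limma). Of 10 fits that each left out 1 control, only that without WT control 10 passed. Grik5 averaged 41.5 ± 2.04 RPKM in knockout-labelled controls and 43.9 ± 1.58 RPKM in WT controls (-0.08 ± 0.03, adjusted p = 0.204 in limma).

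After CSDS 2.24% of 18263 genes were called between the labels, and of the members Grik3 and Neto1 were under an unadjusted p of 0.05. Grik3 averaged 6.56 ± 0.551 RPKM in knockout-labelled CSDS and 5.83 ± 0.315 RPKM in WT CSDS (0.16 ± 0.07, adjusted p = 0.274 in limma). Neto1 averaged 22.2 ± 1.58 RPKM in knockout-labelled CSDS and 24.8 ± 0.705 RPKM in WT CSDS (-0.16 ± 0.06, adjusted p = 0.197 in limma). Grik3 thus lay below WT among controls and above WT after defeat, with neither value past the threshold. Neto2 was close in both settings, at -0.01 after CSDS (95% interval -0.12 to 0.09) and -0.03 in controls (-0.14 to 0.07). These comparisons share libraries with the defeat comparisons and are not independent of them.

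**Figure D4:**
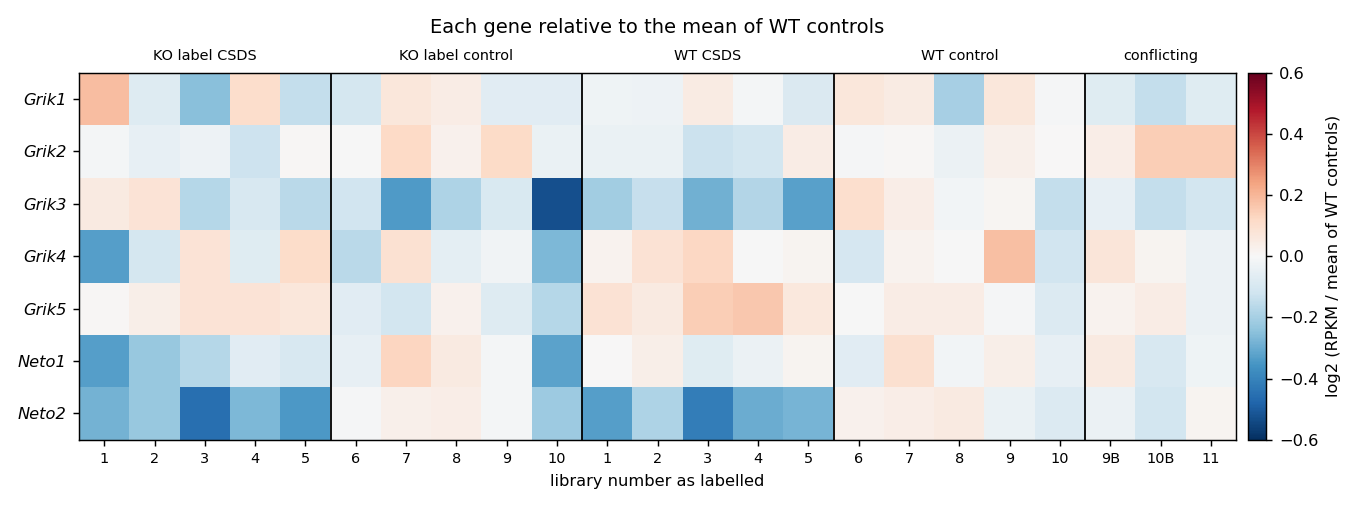
Each gene (rows) in each library (columns, numbered as labelled) as log2 of its RPKM over the mean of WT controls. Columns are grouped by the 4 groups, with the 3 libraries of conflicting label at the right. Neto2 is below 0 in all 10 CSDS libraries, and knockout-labelled control 10 is low for Grik3, Neto1 and Neto2.

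Among genes known to traffic, anchor or edit kainate receptors, those called after CSDS were all lower. Of all called genes 1621 were lower and 1126 higher in the knockout label, and 2287 lower and 1806 higher in WT. Of 26 on the list 25 were tested. In the knockout label 2 of 25 were lower and none higher, where 15.0% of all genes were called: Kif5b, a kinesin motor of dendritic and axonal transport (-0.18 ± 0.04, adjusted p = 0.0137 in limma), and C1ql3, a secreted C1q-like protein that clusters receptors at mossy fibre synapses (-0.13 ± 0.04, adjusted p = 0.0478). In WT 7 of 25 were lower and none higher, where 22.4% of all genes were called, so neither count is a result about the list. They included the RNA editing enzymes Adarb1, which recodes the pore of GluK1 and GluK2 (-0.18 ± 0.02, adjusted p = 0.000865 in limma), and Adar (-0.20 ± 0.03, adjusted p = 0.0012). Kif5b (-0.19 ± 0.04, adjusted p = 0.00663 in limma) and Cdh2, or N-cadherin (-0.11 ± 0.02, adjusted p = 0.0126), were also among them. The list's median log2 fold change was -0.03 in the knockout label and -0.06 in WT, where the medians of all genes tested were -0.01 and -0.00. The number called in the knockout label was 7 without control 10, 1 in 7 of the 10 fits that leave out a library, and 1 with libraries rescaled to an equal median. No list gene was called for the difference of effects by limma, with 2 under an unadjusted p of 0.05. Between labels Adar was higher in the knockout label after CSDS (0.29 ± 0.03, adjusted p = 6.11e-05 in limma) and in controls (0.18 ± 0.03, adjusted p = 0.00742). Among controls C1ql2, a granule-cell relative of C1ql3, was also higher (0.44 ± 0.09, adjusted p = 0.00868 in limma) and Adarb1 lower (-0.14 ± 0.04, adjusted p = 0.0429). C1ql2 is also on the list of dentate granule markers, whose 5 genes ranged from 0.09 to 0.44 in this comparison. Of these 5, 1 was called, where 3.95% of all genes were, and 3 were under an unadjusted p of 0.05 by limma, all higher. The part of granule cells in the C1ql2 value was not tested.

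For the other ionotropic glutamate receptors, none of 4 AMPA subunit genes and none of 6 tested NMDA subunit genes was called by limma in any of the 5 comparisons. At an unadjusted p of 0.05 no AMPA gene passed in any, while 2 NMDA genes passed after CSDS in the knockout label, both higher, and none in WT. In each of the other 3 comparisons 1 NMDA gene passed at that level. AMPA subunits ranged over log2 fold changes of -0.07 to 0.04 in the knockout label and -0.11 to 0.01 in WT. NMDA subunits ranged over 0.01 to 0.13 in the knockout label and -0.13 to 0.08 in WT. Without knockout-labelled control 10, 1 of the 10 genes was called in the knockout label. Whether the kainate receptor genes differ from these was not tested.

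Genes whose levels ran most like those of a member were picked over the 20 libraries among 15958 genes, with r describing libraries that share group differences and dissection. Neto2 was closest to Pum2 (Pearson r = 0.95), Rmnd5a (0.94) and Crk (0.94). Within groups, after removing each group's mean, these were 0.75, 0.70 and 0.68. The genes were picked on the r that includes group differences, so how much of the likeness came with the groups was not tested. Grik5 was closest to Med24 (0.93), Ppfia4 (0.92) and Nploc4 (0.91), with 0.94 for Med24 within groups. Grik3 was closest to Srgap1 (0.86), Chrm2 (0.85) and Map6 (0.83). Neto1 was closest to Ogfrl1 (0.85), Lhx9 (0.84) and Adam11 (0.82), and Grik2 to Ccdc85a (0.86), Nampt (0.85) and Zfp942 (0.85). Grik1 had the loosest likeness over the 20 libraries, to Trpv6 (0.76), Gm9823 (0.68) and Bcl2l2 (0.65). Within groups these were 0.77, 0.70 and 0.82, so it was not loose there.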

How the data were processed

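Poly(A) RNA of mouse hippocampus was sequenced as 75 bp single-end reads from an unstranded kit, per the labels' protocols, and aligned with STAR to mm10, per the submitters' processing notes. Not given in the sources used here are the STAR version, the annotation and the counting tool. The authors deposited RPKM values per library in 1 table per genotype. Per the file headers, the authors' deposited tables also hold a log2 fold change and mean log2 abundance, a score from a likelihood ratio test and its p-value and false discovery rate, headed edgeR. The mean log2 abundance is the same in both tables, so values were compared across them. The fold change is control over CSDS, since all 3739 (WT) and 3055 (knockout label) deposited values under 0.05 have the sign of the group means read that way.

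Values were tested as log2(RPKM + 0.5) with limma 3.58.1 in R 4.3.3 (trend, two-sided), for genes with mean RPKM of at least 0.5 in the libraries fitted, with Benjamini-Hochberg adjustment over all genes. Fold changes on this scale understate changes of low genes. CSDS comparisons used 10 libraries, and the difference of effects and the label comparisons used 20. Depth was read from the steps between low RPKM values in 11601 genes of 1 exon: 94.9 to 96.1% of values came within 0.05 of a whole read. The fits were tested on simulated data. The labels do not say that libraries of a group are separate animals, so the spread behind the p-values may be technical.

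The members and lists were chosen with earlier results of these data known. All 7 members are named, with at most 4 called genes of smallest p from each list, and for each member the 3 genes of highest Pearson r (mean RPKM of at least 1). Alternatives were the pseudocount (0.1 or 1), no filter or one at mean RPKM 1, libraries rescaled to an equal median or sum, no variance trend, the conflicting libraries counted by title or by treatment field, number 10 controls left out, a replicate block, and each library left out. For the CSDS comparisons a fit of all 20 libraries was a further alternative. Marker lists for tissue were summed in RPKM. Promoters come from RefSeq on GRCm38.p6.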

Additional observations from a re-analysis of the deposited data

Results flagged for a closer look

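Neto2 in knockout-labelled control 10 was 7.77 RPKM, far from the other 4 controls of that label, which had 8.96 to 9.28 RPKM. Of 28 groups of 5 libraries looked at for the 7 genes this was the only one with such a gap, and chance flags about 1 in 20 groups. This library also had the lowest Grik3 (4.73 RPKM) and Grik5 (38.9 RPKM) of all 20, and it is one of the libraries with the RNA pattern of a female. Without it and WT control 10 the Neto2 fold change was -0.31 in the knockout label (adjusted p = 0.00208 in limma), and -0.30 in WT (adjusted p = 0.00215).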

How the results depend on the processing

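Of 798 alternative values for the fold changes of single members, 717 kept their direction and side of the threshold, 23 lost a call, 8 gained one and 50 changed sign, all of these last being values that were not called. Some values are counted more than once. Within a genotype, leaving out both number 10 controls is the same fit as leaving out its own control 10. The number of members called after CSDS in the knockout label was 2, and became 1 (Neto2) with libraries at an equal sum or with conflicting libraries counted by title, and 0 by treatment field. It ranged from 1 to 3 with single libraries left out. In WT it was 3, and 1 by treatment field. For the difference of effects it was 0, and 1 (Grik3) without both number 10 controls or with the replicate block, and 0 to 1 with libraries left out. Among controls it was 0, and 1 (Grik3) by title or with the block, and 0 to 1 with libraries left out. Partner genes called in the knockout label went to 1 at an equal median and ranged from 1 to 7 with libraries left out. AMPA and NMDA genes called ranged from 0 to 1 with libraries left out, in the knockout label and among controls. Apart from sums and removed libraries, the cause was not tested.

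Sign changes were small. By treatment field Neto1 was 0.00 in WT, the difference of effects was -0.00 for Grik1 and 0.01 for Grik2, and Neto2 between labels after CSDS was 0.02. Grik1 in the knockout label was 0.01 at an equal median and by title. At an equal sum the difference of effects was 0.01 for Grik2 and Grik4, and between labels after CSDS Grik1 and Neto2 were 0.00. Without number 10 controls Grik4 in the knockout label was -0.02, the difference was -0.00 for Grik1 and -0.01 for Neto2, and Neto1 between controls was 0.02. With single libraries left out, Grik1 ranged from -0.06 to 0.04 and Grik4 from -0.02 to 0.08 in the knockout label. In WT Grik1 ranged from -0.06 to 0.00 and Neto1 from -0.03 to 0.01. For the difference Grik1 ranged from -0.04 to 0.05, Grik4 from -0.07 to 0.03 and Neto2 from -0.03 to 0.05. Between controls Grik1 ranged from -0.06 to 0.00, Neto1 from -0.08 to 0.03 and Neto2 from -0.05 to 0.01, and after CSDS Grik1 from -0.06 to 0.03, Grik2 from 0.00 to 0.04 and Neto2 from -0.04 to 0.02.

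The labels do not say that a library number is shared between genotypes. Deviations of equal-numbered libraries correlated at -0.11 to 0.42, over 0.1 in 3 of 10 pairs, short of the every-pair criterion for pairing, and as a hint from the data 6 of 10 correlated best with their own number. With the number as a replicate block Grik3 passed for the difference (0.39, adjusted p = 0.0494 in limma) and among controls (-0.23, adjusted p = 0.0225). Rescaling moved the split of all called genes: CSDS in the knockout label gave 1126 higher and 1621 lower as deposited, 1361 and 1247 at an equal median, and 582 and 1256 at an equal sum. CSDS in WT gave 1806 and 2287 as deposited and 833 and 3543 at an equal sum. Label against WT in controls gave 448 and 274 as deposited, 245 and 235 at an equal median, and 154 and 207 at an equal sum. Without a filter or without a variance trend Grik5 in WT was not called (adjusted p = 0.0598 and 0.0609).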
